A study of Homo sapiens with 5 samples.

Results

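The 15-minute ini-seq 2 list holds 10181 origins, and every one of them was compared with 2 lists of SNS-seq peaks from the same cell line. All rows of the list were taken, of 366709 regions in the 4 deposited lists of the series, and no value of either method was used to choose them. Ini-seq 2 maps origins in nuclei from EJ30 cells, a human bladder carcinoma line, arrested in late G1 with mimosine and allowed to start replication in a cytosolic extract of HeLa cells with Br-dUTP in place of dTTP. Newly replicated DNA then separates as heavy-light (HL) from unreplicated light-light (LL) DNA, and the reaction compared here ran for 15 min and carries the word control in its label. The SNS-seq lists came from EJ30 DNA strands of 0.5-2 kb and of 2-4 kb, sized as short nascent strands, with EJ30 genomic DNA as the peak caller's input, which is not analysed here. A 3-hour ini-seq 2 list of 23905 origins from the same kind of nuclei served as a reference. Each side of the comparison was 1 list of positions without read counts, so the depth behind a single origin or peak is unknown, no spread between replicates can be given and no test between conditions was possible. The cell line could not be checked against marker genes, because the lists hold no expression values.

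Replication of a chromosome starts at many origins, where the MCM helicase, loaded in G1, is activated and a pair of forks moves outwards. SNS-seq isolates the short RNA-primed strands made first at an origin, using an exonuclease that spares RNA-primed ends, and reads mark the sites where such strands accumulate in growing cells. Ini-seq 2 instead measures which DNA became replicated in isolated nuclei under controlled conditions. Human origins of both kinds are often found in GC-rich promoters and CpG islands, where runs of G can form G-quadruplexes. Because the methods share neither the labelling nor the chemistry of isolation, the comparison asks where the earliest ini-seq 2 calls lie among the many SNS-seq sites, and in which sequences they part.

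Sequences are shown first for origins that the 0.5-2 kb list covered only in part. In 1261 origins the sequence of 1 origin was shared between 2 or more peaks of the 0.5-2 kb list, with bases left outside the peaks between them. The 2 examples are from the 3 origins of the highest Z-score decile with the largest excess of GC in such a gap over the covered bases of the same origin, among those split between 2 peaks whose gap lay inside 1 peak of the 2-4 kb list and overlapped no exon. They were chosen by that excess, so it is no finding in them. Each is given 5′ to 3′ on the plus strand of hg38, with the uncovered bases in capitals and 40 covered bases on either side in lower case.
Upstream of ACVR1B, chr12:51951504-51951665: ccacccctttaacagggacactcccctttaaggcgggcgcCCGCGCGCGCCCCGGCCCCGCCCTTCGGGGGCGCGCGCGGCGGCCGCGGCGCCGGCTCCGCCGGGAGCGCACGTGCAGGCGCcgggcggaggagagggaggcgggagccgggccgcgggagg
SIAH1 intron, chr16:48384795-48384984: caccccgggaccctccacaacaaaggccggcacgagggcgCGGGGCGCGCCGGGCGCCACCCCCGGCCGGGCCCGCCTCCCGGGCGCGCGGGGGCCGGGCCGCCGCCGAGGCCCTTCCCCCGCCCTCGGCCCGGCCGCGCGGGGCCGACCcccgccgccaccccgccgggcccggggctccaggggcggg
The capitals of these stretches were 91.5% and 93.6% G or C, against 73.8% and 82.5% in the lower-case flanks. They lay in origins of 700 and 1200 bp.

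The next set shows an origin that both SNS-seq lists held and 4 of the 13 that neither list held. The 4 were taken, with the data seen, from the 7 of these 13 that were also called at 3 h. They need not represent all 13. Each line is 120 bases of the origin, the exon-free stretch with most bases in a G-quadruplex motif (4 G runs, each 3 or more long, separated by 1 to 7 bases, searched on both strands), with the motif in capitals.
TOP1 intron, chr20:41029104-41029223: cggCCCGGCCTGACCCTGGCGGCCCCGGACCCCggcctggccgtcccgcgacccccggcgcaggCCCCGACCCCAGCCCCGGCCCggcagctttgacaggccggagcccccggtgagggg
LAT2 intron, chr7:74204004-74204123: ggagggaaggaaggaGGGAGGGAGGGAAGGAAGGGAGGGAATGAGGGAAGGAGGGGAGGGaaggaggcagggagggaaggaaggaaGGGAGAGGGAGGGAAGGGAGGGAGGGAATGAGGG
Nearest to ZNF91, chr19:23466112-23466231: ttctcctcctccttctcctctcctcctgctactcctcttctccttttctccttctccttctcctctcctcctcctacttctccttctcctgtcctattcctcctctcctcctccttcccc
Nearest to RBM38, chr20:57439201-57439320: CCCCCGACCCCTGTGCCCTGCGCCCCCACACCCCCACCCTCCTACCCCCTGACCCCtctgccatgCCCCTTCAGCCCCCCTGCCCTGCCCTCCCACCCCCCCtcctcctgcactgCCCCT
Nearest to CCT8L2, chr22:16563523-16563642: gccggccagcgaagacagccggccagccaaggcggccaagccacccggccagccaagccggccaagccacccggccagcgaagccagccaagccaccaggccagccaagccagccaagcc
The stretch at TOP1, which encodes DNA topoisomerase I, held 15 CpG dinucleotides. The stretch in LAT2 held 0 CpG and consisted almost wholly of purines. The stretch nearest to ZNF91 held 0 CpG and no motif, and consisted of pyrimidine repeats. That nearest to RBM38 held 2 CpG and 98 motif bases, and that nearest to CCT8L2 held 8 CpG in a tandem repeat without a motif. A motif match describes letters only, and 79.9% of all 15-minute origins held at least 1.

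Nearly every 15-minute origin overlapped an SNS-seq peak. A peak of the 0.5-2 kb list overlapped 10018 of the 10181 origins by at least 1 bp (98.4%, exact Clopper-Pearson 95% interval 98.1 to 98.6). A peak of the 2-4 kb list overlapped 10167 (99.9%, 99.8 to 99.9). Both lists held 10017 origins, 150 were held by the 2-4 kb list alone, 1 by the 0.5-2 kb list alone and 13 by neither (0.128%, 0.068 to 0.218). The background share was far lower: of 2936811 tiles of 1 kb on hg38, 6.47% overlapped a 0.5-2 kb peak and 8.66% a 2-4 kb peak. The intervals cover counting error only. The files do not state whether SNS-seq starts count from 0 or 1, and counting from 1 changed none of these 3 shares.

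The share varied little between chromosomes. For the 0.5-2 kb list it ran from 95.6% on chromosome X (226 origins) to 99.8%, with a median of 98.2% over 23 chromosomes. For the 2-4 kb list it ran from 99.4% on chromosome 15 to 100%, which 13 chromosomes reached. Origins called only in the 3-hour reaction gave lower shares on 23 of 23 chromosomes for both lists. Of these 14308 origins, 63.9% (63.1 to 64.7) overlapped a 0.5-2 kb peak and 85.5% (84.9 to 86.1) a 2-4 kb peak, and 14.0% overlapped neither.

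The 498 origins called at 15 min and not at 3 h still overlapped SNS-seq peaks at 95.2% (92.9 to 96.9) and 98.8% (97.4 to 99.6). They were shorter than the 9683 found in both reactions, with a median length of 400 bp against 700 bp, and richer in GC (76.6% against 74%). Peaks covered on average 87.3% of such an origin in the 0.5-2 kb list, against 93.5% for origins of both reactions. Of the 13 origins with no peak, 6 were among these 498.

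**Figure D1:**
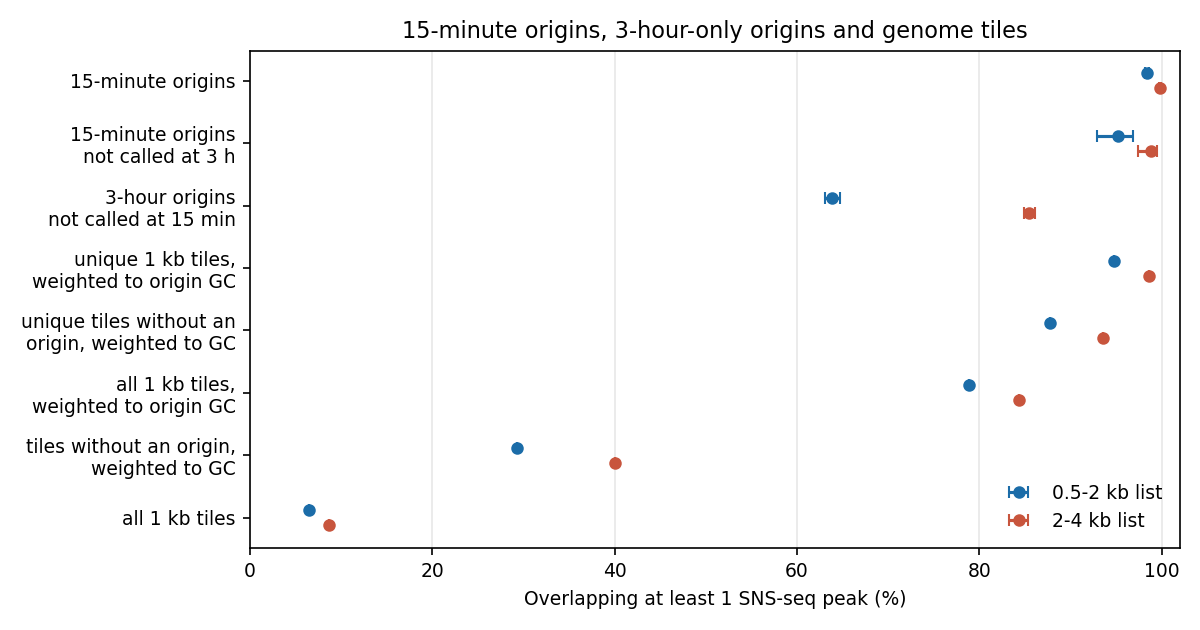
Percentage of regions overlapping at least 1 SNS-seq peak (x axis) for the 15-minute origins, for origins of 1 reaction only and for 1 kb genome tiles (y axis), with 0.5-2 kb peaks in blue and 2-4 kb peaks in red. Bars are exact 95% intervals for origins; tiles are complete counts. The 15-minute origins sit at 98.4% and 99.9%, all tiles at 6.47% and 8.66%, and tiles weighted to the origins' GC content lie between these.

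Where an origin missed a peak, the nearest one was usually close. The 163 origins without a 0.5-2 kb peak lay at a median of 806 bp from one (range 3 to 629930 bp), and 39 lay beyond 5 kb. The 14 origins without a 2-4 kb peak lay at a median of 2838 bp, and 5 lay beyond 5 kb. Only 24 of all 10181 origins were more than 10 kb from a 0.5-2 kb peak.

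Most origins lay under a single peak. Of the 10018 origins with a 0.5-2 kb peak, 8757 (87.4%) had 1, 1149 had 2, 100 had 3, 9 had 4 and 3 had 5. In the 2-4 kb list 9853 (96.9%) had 1, 305 had 2 and 9 had 3. Origins under several peaks were longer, with a median of 600 bp for those with 1 peak of the 0.5-2 kb list, 1000 bp with 2 and 1500 bp with 3. The origin over the start of SMAD7, which encodes an inhibitor of TGF-beta signalling, had most peaks: 5 of the 0.5-2 kb list and 3 of the 2-4 kb list within 2900 bp at chr18:48949901-48952800. The start of CUX1, a homeobox transcription factor, had 5 and 2 over 3800 bp, and an exon of NR3C1, the glucocorticoid receptor gene, had 5 and 1 over 2500 bp.

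The peaks extended beyond the origins. The widest overlapping peak had a median width of 1631 bp (quartiles 1171 and 2099) in the 0.5-2 kb list and 2789 bp (2047 and 3887) in the 2-4 kb list, against a median origin length of 700 bp. It was wider than its origin in 91.6% and 99.5% of origins, by a median ratio of 2.24 and 3.93. The whole origin lay inside the peak in 77.1% and 95.5%. The centres of peak and origin lay a median of 164 bp and 275 bp apart. Over 3-hour-only origins of similar length (median 600 bp) the corresponding peaks were narrower, at 742 bp and 1644 bp. Those origins also held less GC, with a median of 62.1% in 1 kb against 70.3%, and width was not weighted by GC content.

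Where both fractions had a peak, the 2-4 kb peak was the wider in 98.8% of 10017 origins, with a median ratio of 1.72. The 0.5-2 kb peak lay wholly inside it in 90.6%. Longer origins had wider peaks: the median rose from 1175 bp over the 1372 origins of 300 bp to 2482 bp over the 638 origins of 1600 bp or more in the 0.5-2 kb list, and from 2201 bp to 4111 bp in the 2-4 kb list. The same origins of 300 bp were the least often covered, with 93.4% overlapping a 0.5-2 kb peak, whereas all 638 of the longest did.

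**Figure D2:**
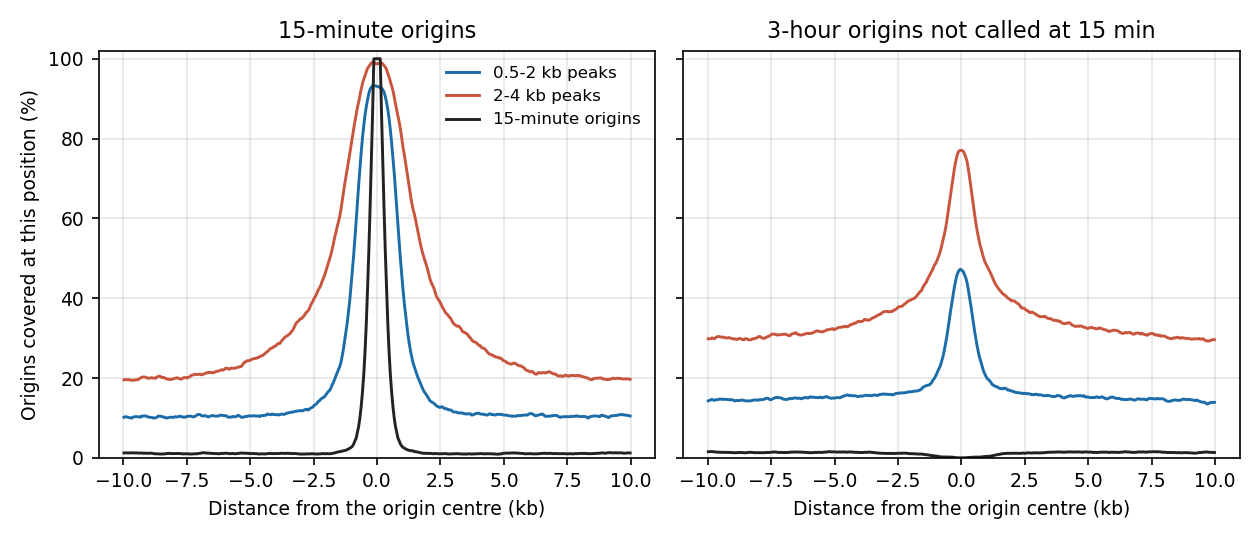
Percentage of origins covered by a peak at each position (y axis) against the distance from the origin centre in kb (x axis), for 15-minute origins (left) and 3-hour-only origins (right). Blue, red and black lines are 0.5-2 kb peaks, 2-4 kb peaks and 15-minute origins. The highest cover, near the centre, was 93.2% and 99.1% for 15-minute origins and 47.3% and 77.0% for 3-hour-only origins.

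The average profile had the same order. Cover by 0.5-2 kb peaks was 93.2% at its highest, near the origin centre, 44.4% at 1 kb and 10.4% at 9 to 10 kb. Cover by 2-4 kb peaks was 99.1% at its highest, also near the centre, and 79.05% and 19.8% at the same distances. Above those outer levels, the profile was 1950 bp and 3800 bp wide at 50% of its height, against 700 bp for the origins themselves. Around 3-hour-only origins the outer level was higher (14.3% and 29.9%) and the summit lower.

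Seen from the SNS-seq side, few peaks held a 15-minute origin, and those that did were wide. In the 0.5-2 kb list 11244 of 147529 peaks on the main chromosomes (7.62%) overlapped an origin, with a median width of 1502 bp against 270 bp for the rest. In the 2-4 kb list 10059 of 184832 (5.44%) did, at 2692 bp against 323 bp. These peaks held 26.1% and 25.04% of all peak bases. A wider peak also has more room to overlap an origin. The shares by width were not set against positions of equal width, so they do not remove this effect. Of 0.5-2 kb peaks under 250 bp, 0.452% overlapped a 15-minute origin, of those of 1 to 2 kb 54.1%, and of those of 2 to 3 kb 73.5%. In the 2-4 kb list the same classes gave 0.0442%, 15.3% and 48.1%. Beyond 3 kb the 0.5-2 kb share did not rise further outside its interval (69.3%, 65.7 to 72.7, at 3 to 5 kb).

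The widest peaks joined several origins. A 2-4 kb peak of 32100 bp on chromosome 14 lay over 4 named origins, at chr14:105473601-105475300 and chr14:105477901-105479500 in CRIP2, at chr14:105486901-105487900 and, in TEDC1, at chr14:105490001-105491800. In the 0.5-2 kb list the widest peaks over the same 4 origins were separate and 2306 to 3428 bp wide. In all, 156 peaks of the 0.5-2 kb list and 374 of the 2-4 kb list overlapped 2 or more 15-minute origins, up to 3 and 6. The widest 0.5-2 kb peak over a named origin, of 11166 bp, lay over MIB2, which encodes a ubiquitin ligase, and MMP23B, a metalloproteinase gene.

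GC content was set against the overlap next, since the origins were rich in it (median 74.1%, quartiles 71.9 and 76.3). Windows of 1 kb around 10178 origin centres overlapped a 0.5-2 kb peak in 98.9% and a 2-4 kb peak in 99.9%; 3 windows with unknown bases were left out. All 1 kb tiles of the genome, those with origins included, were weighted to the same GC content in bins of 1 percentage point. They gave 78.9% and 84.3%, an excess of 20.01 and 15.6 percentage points. Tiles that no ini-seq 2 origin of either reaction touched gave 29.2% and 40.05% under the same weights. The excess over all weighted tiles was above 0 on 23 of 23 chromosomes, from 10.46 to 46.6 points and from 6.58 to 44.5 points.

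Part of this excess went with repeated sequence. Both pipelines kept uniquely aligned reads, and the libraries were read at 50 bases, so each window was scored by the share of its 50-base stretches that occur once in hg38. Origin-free tiles of 70 to 75% GC without a 2-4 kb peak had a median of 19.2% unique stretches, against 74.4% in those with a peak and 100% in the origin windows. Windows and tiles were then held to at least 90% unique stretches and at least 50% GC (9991 windows and 238134 tiles). The weighted tiles reached 94.8% and 98.7%, and the excess fell to 4.21 and 1.25 points. These tiles again included those with origins, so the origins were partly compared with themselves. At 70 to 75% GC only 92 unique tiles held no origin, beside 3404 origin windows. Against unique tiles without an origin the excess was 11.2 and 6.36 points, with 569 windows left out for want of a tile of their GC content.

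The extent of cover also differed. In unique sequence, 0.5-2 kb peaks covered 91.4% of the bases of origin windows and 84.1% of the weighted tiles, or 73.4% of those without an origin. The 2-4 kb peaks covered 98.3%, 95.5% and 88.5%. The gap was widest at moderate GC. At 55 to 60% GC, 230 unique origin windows were covered to 63.9% by 0.5-2 kb peaks, 7444 tiles with a 3-hour origin only to 30.4%, and 55156 tiles without an origin to 10.7%. At 70 to 75% GC the values were 97.3%, 93.3% and 85.8%, the last over 92 tiles. The origin windows were centred on origins, whereas the tiles lay on a fixed grid. A tile could thus hold only the edge of a 3-hour origin, so these values do not compare the 2 reactions at like positions. Centred windows of 3-hour-only origins are compared below.

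**Figure D3:**
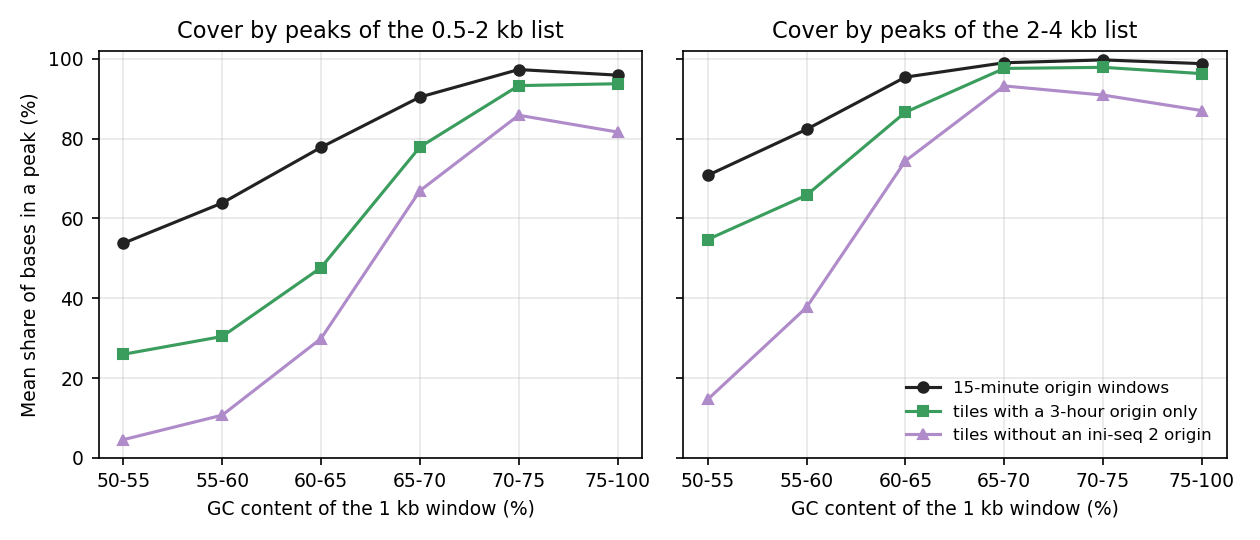
Mean percentage of bases inside a peak (y axis) in 1 kb windows of at least 90% unique 50-base stretches, by GC content (x axis), for 0.5-2 kb peaks (left) and 2-4 kb peaks (right). Black circles are 15-minute windows centred on origins, green squares fixed-grid tiles that a 3-hour origin only touches at any point, and purple triangles tiles without an origin. The black points lie above the others in every class, and the distance is smallest above 65% GC for 2-4 kb peaks. At 75 to 100% GC the green and purple points rest on 6 and 10 tiles. At 50 to 55% GC the black points rest on 24 windows.

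The difference from 3-hour-only origins shrank in the same way. Their centres had a median GC content of 62.1% in 1 kb, against 70.3% for the 15-minute origins. Weighted to the GC content of the 15-minute origins, 3-hour-only windows overlapped a 0.5-2 kb peak in 92.3% and a 2-4 kb peak in 98.4%, against 98.8% and 99.9%, with 1308 windows left out for want of a shared GC bin. The difference was thus 6.52 and 1.44 points, where it was 31.6 and 12.3 points without weights. Cover differed by 11.3 and 4.56 points, and was higher for the 15-minute origins on 23 of 23 chromosomes. Below 65% GC, 95.8% of 1626 15-minute windows overlapped a 0.5-2 kb peak and 70.1% of the weighted 3-hour-only windows did.

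Near coding starts the excess over all weighted tiles was smaller than over the whole genome. Among windows and tiles with a protein-coding start within 1 kb, the weighted tiles reached 95.7% and 97.6%, and the excess of the 6952 origin windows was 3.41 and 2.34 points. Where no gene start of any kind lay within 5 kb, 1584 origin windows overlapped in 98.7% and 99.6% and the weighted tiles in 60.6% and 68.9%. Neither set of tiles was held to unique sequence or cleared of tiles with an origin. The origins were thus partly compared with themselves, and the part of gene starts in the smaller excess was not tested.

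The Z-score of the 15-minute list, which ranks its origins by efficiency, the normalised share of HL reads, rose with the overlap. It is centred on 0, scaled to unit spread and runs from -2.05 to 2.87. Of the 1019 origins in the lowest decile, 93.8% (92.2 to 95.2) overlapped a 0.5-2 kb peak and 63 did not. Of the 1016 in the highest, 99.9% did and 1 did not. The 2-4 kb list gave 99.4% and 100%. Median widths went from 1385 bp to 1782 bp in the 0.5-2 kb list and from 2785 bp to 3002 bp in the 2-4 kb list, the latter with a low of 2503 bp in the third decile.

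GC content and length moved with the Z-score. Median GC went from 70.3% to 78.2% and median length from 500 bp to 900 bp between the lowest and the highest decile. Across the 10181 origins Spearman's rho of Z-score and GC was 0.71, and that of Z-score and length 0.26. For Z-score and 0.5-2 kb peak width rho was 0.19 over all overlapping origins and between -0.04 and 0.10 within 10 groups of like GC content. For the 2-4 kb peaks it was 0.09 overall and between -0.08 and -0.01 within GC groups. These values describe origins of 1 list, which are not independent replicates. With deciles formed within GC groups, the difference in share between highest and lowest was 0.697 points for the 0.5-2 kb list, where it was 6.08 points over the whole list, and -0.293 points for the 2-4 kb list, where it was 0.589. In the lowest GC quintile (50.3 to 71.3% GC) 91.3% of the lowest tertile by Z-score and 95.3% of the highest tertile overlapped a 0.5-2 kb peak. In the other 4 quintiles both tertiles were at 97.8% or above.

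**Figure D4:**
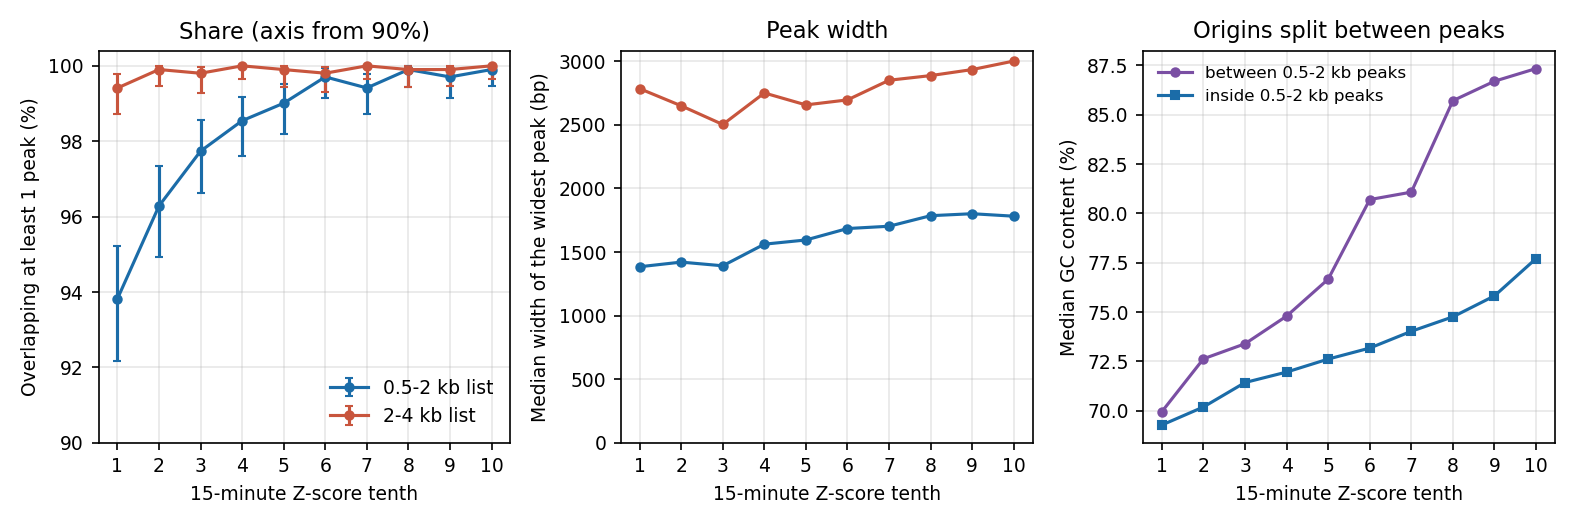
Share of origins overlapping a peak with exact 95% intervals (left, axis from 90%), median width of the widest peak (middle) and median GC content of origins split between 0.5-2 kb peaks (right), by decile of the 15-minute Z-score (x axes). Blue is the 0.5-2 kb list, red the 2-4 kb list and purple the bases between peaks. The 0.5-2 kb share rises from 93.8% to 99.9%, and the GC content between peaks pulls away from that inside peaks, reaching 87.3% against 77.7%.

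Among the deciles, the highest held the largest share of split origins, and its origins were also the longest. In the 0.5-2 kb list 13.6% of overlapping origins in the lowest decile had several peaks, 8.15% in the sixth and 24.3% in the highest. In the 2-4 kb list the share went from 2.27% to 7.68%. Spearman's rho of Z-score and number of 0.5-2 kb peaks was 0.06 over 10018 origins, with a median of 0.03 within 14 groups of origins of like length (-0.03 to 0.23), and that of length and number of peaks was 0.23. The bases left between the 0.5-2 kb peaks, like those printed above, were a median of 133 bp in an origin. They held more GC than the covered bases of the same origin in 964 of 1261 origins, at a median of 80.9% against 73.7%. In the lowest Z-score decile the medians were 69.95% and 69.3%, with the gap higher in 75 of 130 origins. In the highest decile they were 87.3% and 77.7%, with the gap higher in 234 of 247.

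The middle of an origin was itself somewhat richer in GC. In 5781 origins of 500 bp or more that 1 peak covered wholly, the central 150 bp held a median of 2 points more GC than the rest, 3.07 points in the highest decile and -0.883 points in the lowest. The gaps exceeded their own origin by 9.60 points in the highest decile. A peak of the 2-4 kb list covered the gap wholly in 79.9% of all split origins and in 71.3% of those in the highest decile. Motif bases made up an average of 16.4% of the gaps and 9.34% of the covered bases. GC content and motif density thus moved with the gaps, and their part in the split was not tested.

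The 5 highest Z-scores went with narrow peaks. They lay at the start of SLC7A5 (Z-score 2.87, chr16:87869401-87869700), near ADGRL1 (2.76, chr19:14206501-14206900), at BEND7 (2.67, chr10:13528301-13529400), in an exon where SLC6A8 and PNCK overlap (2.64, chrX:153688001-153688300) and in TLK2 (2.58, chr17:62478501-62479100). SLC7A5 and SLC6A8 encode an amino acid and a creatine transporter, ADGRL1 an adhesion G protein-coupled receptor and TLK2 a Tousled-like kinase. Their 0.5-2 kb peaks were 317 to 945 bp wide, SLC6A8 having none, and their 2-4 kb peaks 385 to 1310 bp. The medians of their decile were 1782 bp and 3002 bp. The 5 origins were 300 to 1100 bp long, and the median length in their decile was 900 bp. None of the 5 was called at 3 h. Across the highest decile, the 80 origins not called at 3 h had a median 0.5-2 kb width of 1169 bp and the 936 called in both reactions 1795 bp. Their median lengths were 500 bp and 900 bp. Longer origins had wider peaks, and widths were not compared here at equal length.

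The uncovered origins were poorer in CpG. The ratio of CpG dinucleotides found to those expected from the counts of C and G had a median of 0.86 over the 10017 origins that both lists held, 0.76 over the 150 held by the 2-4 kb list alone and 0.21 over the 13 held by neither. It was below 0.6 in 3.93%, 23.3% and 69.2% of these. Among the 13, the median was 0.12 over the 7 also called at 3 h and 0.63 over the 6 called at 15 min only. The 4 printed origins without a peak had ratios of 0 to 0.21, whereas the 13 ran from 0 to 1.27. Of 22 origins with a ratio under 0.2, 10 overlapped a 0.5-2 kb peak (45.5%, 24.4 to 67.8) and 15 a 2-4 kb peak. Of 6445 with a ratio of 0.8 to 1.0, 99.2% and 99.97% did. The median length was 400 bp in the first of these classes and 700 bp in the second, and length was not held equal. The ratio was examined after the printed sequences had been seen.

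Within classes of GC content the order in the 0.5-2 kb list was the same where both sides held 20 origins or more. At 65 to 70% GC, 85.1% (77.5 to 90.9) of 121 origins with a ratio below 0.6 and 92.1% (90.1 to 93.8) of 872 at or above it overlapped a 0.5-2 kb peak. At 70 to 75% the shares were 92.6% (88.8 to 95.3) and 99.2% (98.9 to 99.4). Width had no single order in the 2-4 kb list. There the 282 CpG-poor origins of 70 to 75% GC lay under peaks of 3613 bp in the median and the 4745 others under peaks of 2630 bp, while in the 0.5-2 kb list the medians were 1469 bp and 1565 bp. At 75% GC or more the 2-4 kb order was the opposite, with 2546 bp over 32 CpG-poor origins and 3033 bp over 4099 others. Among 3-hour-only origins with a ratio under 0.2 the overlap was 27.6% and 59.8%.

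**Figure D5:**
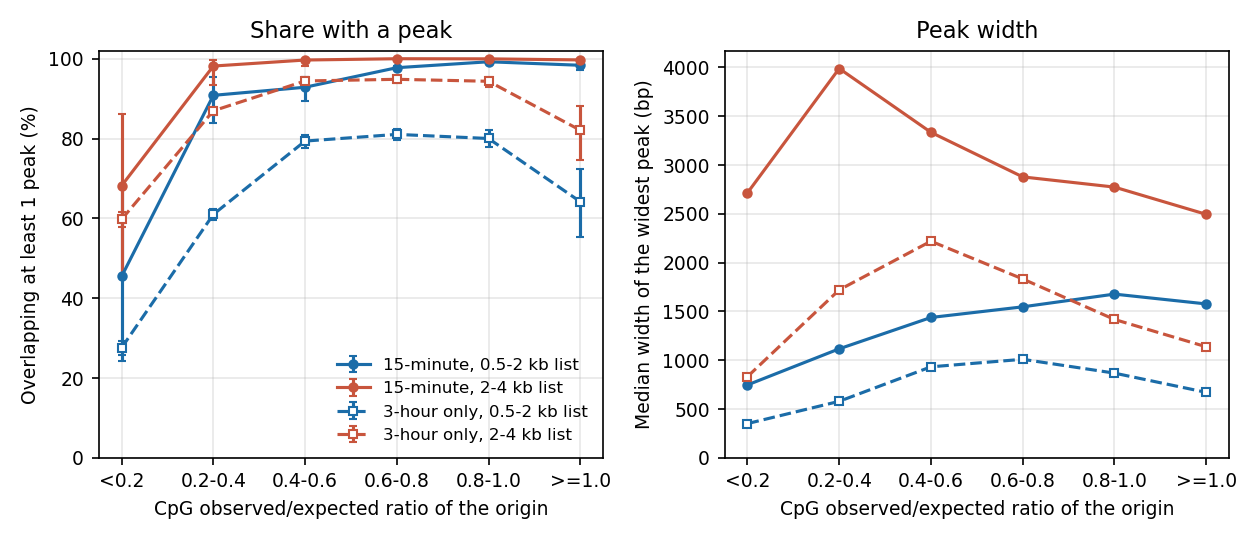
Share of origins overlapping a peak with exact 95% intervals (left) and median width of the widest peak (right) against the observed to expected CpG ratio of the origin (x axes). Blue is the 0.5-2 kb list and red the 2-4 kb list; filled circles are 15-minute and open squares 3-hour-only origins. The share is lowest below a ratio of 0.2, at 45.5% and 68.2% for 15-minute origins, and 2-4 kb peaks are widest at 0.2 to 0.4 (3989 bp).

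The 150 origins held by the 2-4 kb list alone had low Z-scores and were short. Their median Z-score was -1.15, 139 of them lay below 0, and 82 were 300 bp long. Their median GC was 69.5%, and 76 held a G-quadruplex motif. The 2-4 kb peaks over them had a median width of 1057 bp, against 2808 bp where both lists held the origin. The 1 origin with a 0.5-2 kb peak alone lay in an intron of SORCS2, a sorting receptor gene, at chr4:7539801-7540200, under a peak of 188 bp.

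The 13 origins that no peak overlapped were of several kinds. Their Z-scores ran from -2.03 to 0.955, with a median of -0.79, 9 lay outside annotated genes and 7 were also called at 3 h. The printed stretch of LAT2, a gene for a membrane adaptor of immune cells, is from chr7:74203901-74204200, which had the highest Z-score of them (0.955) with 55.7% GC and a purine or pyrimidine tract of 87 bases. The origin nearest to ZNF91 had 50.3% GC and a tract of 44 bases. The median longest tract over origins held by both lists was 12 bases. Those nearest to GOLGA6L6, at chr15:20343401-20344000, and to CCT8L2, at chr22:16563101-16563800, were tandem repeats in which 28.3% and 30.2% of 8-base words were distinct, against a median of 94.7% where both lists held the origin.

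Others lay far from any peak. The start of DTWD1, at chr15:49621001-49621300 with a CpG ratio of 0.91, was 98874 bp from a 0.5-2 kb peak and 98883 bp from a 2-4 kb peak. An exon of SHQ1, a gene for a factor that assembles box H/ACA ribonucleoproteins, lay 37455 bp from the nearest 2-4 kb peak, and an intron of ZNF691 27366 bp. The farthest, at chr9:64773501-64773900, was 624063 bp from one. Of the 13, 8 (61.5%) had 100% unique 50-base stretches and none had fewer than 50%. Of the 10017 origins with both peaks, 96.7% had 100%.

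Origins at gene starts and in exons were covered more often than those in introns or outside genes. The 4637 origins over 1 protein-coding start overlapped 0.5-2 kb peaks in 99.0% (98.7 to 99.3) and the 3426 in a coding-gene exon away from starts in 98.7% (98.3 to 99.1). The shares were lower for 420 intronic origins (96.0%, 93.6 to 97.6) and for 565 outside genes (94.3%, 92.1 to 96.1), which were shorter, with a median of 400 bp in both classes against 800 bp at coding starts. In the 2-4 kb list the values were 99.98%, 99.97%, 99.3% and 98.4%. Intronic origins lay under the widest 2-4 kb peaks, at a median of 3194 bp, 6.74 times their own length.

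Peak centres lay slightly downstream of origin centres at coding starts. The offsets were taken from the origin centre and not from the gene start. Their quartiles were -118.25 and 198.5 bp in the 0.5-2 kb list and -180.1 and 323.5 bp in the 2-4 kb list. At origins over 1 coding start, the peak centre lay downstream of the origin centre in 56.8% for the 0.5-2 kb list and 56.6% for the 2-4 kb list, with medians of 39 bp and 54 bp in the direction of transcription. Plus-strand and minus-strand genes gave 55.7% and 57.8% in the 0.5-2 kb list. Over 50% was seen on 22 and 20 of 23 chromosomes. Outside genes, read on the plus strand, the shares were 51.6% and 50%.

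Origins over genes of the replication machinery illustrate the widths. Of 29 genes for licensing and the helicase, 13 had a 15-minute origin within 1 kb of their start, all 13 with peaks of both lists. The share over all 20033 protein-coding genes was 38.7%. Their 0.5-2 kb peaks ran from 390 bp at TOPBP1, an activator of origin firing, to 4504 bp at CDT1, which loads the MCM helicase, and their 2-4 kb peaks from 1235 bp to 5947 bp at the same genes. The helicase subunit genes MCM2, MCM6 and MCM7 had 0.5-2 kb peaks of 1306, 1392 and 1470 bp. The other 16 genes had no 15-minute origin near their start, and 6 of these starts lay within 1 kb of a 0.5-2 kb peak and 12 of a 2-4 kb peak. Over all protein-coding genes without such an origin the shares were 43.7% and 57.0%.

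Of 27 genes of the replication fork, 11 had such an origin, again with both peaks. For these and the next lists, the share over all protein-coding genes was 38.7%, and 98.4% of all 15-minute origins had both peaks. PCNA, the sliding clamp, had peaks of 2022 and 2418 bp. LIG1, DNA ligase I, had 616 and 3018 bp, and POLD1, the catalytic subunit of polymerase delta, 462 and 9299 bp, so that the fractions differed most there. Of 10 genes of S-phase nucleotide supply 5 had an origin, with peaks of 1790 and 1907 bp at TYMS, the thymidylate synthase gene. Of 20 keratin genes KRT8 and KRT18 shared 1 origin, whose peaks were 426 and 490 bp wide. None of 20 olfactory receptor genes of chromosome 11 had a 15-minute origin, and 2 of these starts lay within 1 kb of a 0.5-2 kb peak and 0 of a 2-4 kb peak, again beside 43.7% and 57.0% of all coding genes without an origin.

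Among genes drawn in the study's own examples, together with LMNB2, 9 had a 15-minute origin within 10 kb. Each of these origins had peaks of both fractions, as had 98.4% of all 15-minute origins. The study drew its regions as examples of origins, so the count is no finding about these genes. The origin at TOP1, chr20:41028801-41029400, had a Z-score of 1.01, 73.8% GC and a CpG ratio of 0.90, and lay under peaks of 1540 and 2599 bp. The origin at DNMT3B, a DNA methyltransferase gene, had the widest pair at 2654 and 3974 bp, and that at MAPRE1, which encodes the microtubule protein EB1, the narrowest at 987 and 1282 bp. Those at KLF12, TBC1D4, LMO7-AS1, COMMD7 and CBFA2T2 lay between, each under 1 peak of either list. At LMNB2, the lamin B2 gene, the origin over the gene start, chr19:2455901-2457100, was split between 2 peaks of the 0.5-2 kb list. The wider was 1313 bp, and the origin lay under 1 peak of 3476 bp in the 2-4 kb list. CDK5RAP1, also drawn in the study, had no 15-minute origin within 10 kb.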

How the data were processed

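Ini-seq 2 and SNS-seq were compared through the positions in the authors' deposited lists. Per the study's methods and the submitters' processing notes, reads were aligned to hg38 with Bowtie2, only uniquely aligned reads were kept, ini-seq 2 origins were joined from enriched 100 bp windows, and SNS-seq peaks were called with MACS2 against EJ30 genomic DNA. The deposited 15-minute list gives a Z-score for each origin, a score that the authors computed from HL and LL reads normalised to library totals. The 3-hour list as deposited by the authors gives efficiency as a fraction, which was not used beyond the positions. The SNS-seq lists hold positions without a score. The study states total mapped reads for the ini-seq 2 libraries, but the lists hold no read counts, and each side was 1 list, with no sample to serve as a replicate.

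Overlap needed at least 1 bp. GC content was standardised over all 1 kb tiles of hg38 in bins of 1 percentage point. Unique sequence was scored from 50-base stretches every 25 bp. Gene starts came from GENCODE 44. Shares have exact Clopper-Pearson 95% intervals. Python 3.11.15, numpy 2.4.6, pandas 2.3.3, scipy 1.17.1, numba 0.67.0 and matplotlib 3.10.9 were used. The interval search was tested on simulated data, with 2000 of 2000 queries equal to a direct search.

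The comparison, the gene lists and the named origins were chosen with earlier results of these data known. Named were the origins at gene starts the study draws and at LMNB2 (within 10 kb), and the 5 with the highest Z-score, the 5 highest without a peak, the 5 farthest from a peak, the 5 under the widest peak of either list and the 5 with most peaks. Origins on chromosome 8 were not named. The printed gap sequences, the other origins without a peak or with 1 list only, the limit on unique sequence, the CpG ratio and the start base of SNS-seq peaks were chosen after seeing the data. Some items that met these rules are not reported here.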

Additional observations from a re-analysis of the deposited data

How the results depend on the processing

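Of 54 recomputed values, 12 moved by less than their interval or spread, 41 moved by more and 1 reversed. Counting peaks within 1 kb raised the 0.5-2 kb share to 99.3% and within 5 kb to 99.6%, requiring 50% of the origin to be covered gave 95.9%, and keeping only peaks of 500 bp or more gave 94.2%. For the 2-4 kb list, 5 kb gave 99.95%, 50% cover 99.6% and peaks of 500 bp or more 99.4%. The share with no peak of either list became 0.0491% within 1 kb and within 5 kb, 0.383% with 50% cover and 0.540% with peaks of 500 bp or more. The excess over GC-weighted tiles, 20.01 points for the 0.5-2 kb list, became 19.5 with 500 bp tiles, 26.3 with 2 kb tiles, 21.02 with GC bins of 5 points, 69.7 against tiles without an origin, 3.41 near coding starts, 38.1 away from gene starts, 22.3 with peaks of 500 bp or more, 4.21 in unique sequence and 11.2 in unique sequence without an origin. For the 2-4 kb list, 15.6 points became 16.97, 14.9, 15.7, 59.8, 2.34, 30.8, 18.4, 1.25 and 6.36 under the same settings in the same order. The excess thus kept its sign under all of these settings, while its size depended on the tiles compared. Except where stated, the tiles included those with origins. The highest minus the lowest Z-score decile, 6.08 points for the 0.5-2 kb list, was 0.697 within GC groups, 4.01 within origin lengths, 4.38 with quartiles and 1.47 with peaks within 5 kb. For the 2-4 kb list, 0.589 points turned to -0.293 within GC groups. Joining peaks within 500 bp widened the median peak to 2105 bp and 4108 bp in the 0.5-2 kb and 2-4 kb lists, and pairs of 1 peak to 1 origin gave 1677 bp and 2700 bp. The share of origins with a wider peak was then 98.2% and 99.91% after joining, and 96.5% and 99.85% in such pairs. The limit on unique sequence was added after seeing the data, and the cause of the other changes was not tested.

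No paired analysis was possible because each side of the comparison is 1 list of positions, without replicates to leave out. Without read counts in the lists, the coverage at origins that lack a peak cannot be given. The SNS-seq lists held no score, which left width as the one available limit on peaks. Origins of 1 list are not replicates, and the intervals treat them as independent.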
